A study of Mus musculus with 88 samples.

Results

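The NR4A genes Nr4a1, Nr4a2 and Nr4a3 were followed in RAW 264.7, a cell line from mouse that resembles macrophages, through every probe that the platform's annotation assigns to them. Symbols were brought up to date through Entrez identifiers. They are 3 of the 10698 genes with a current symbol on the array. Of 16281 probes, 4 belonged to the family: probe 15733 for Nr4a1, probes 6395 and 8853 for Nr4a2, and probe 6747 for Nr4a3. The cells had been given LPS with ISO, LPS with PGE2, LPS alone, ISO alone or PGE2 alone for 1, 2 or 4 h. They were compared with cells of the same time in medium, on 2-colour arrays that hold both RNAs. LPS (lipopolysaccharide, 100 ng/ml) is a bacterial product sensed by Toll-like receptor signalling, ISO (isoproterenol, 50 nM) activates beta-adrenergic receptors, and PGE2 (prostaglandin E2, 10 µM) activates prostaglandin E receptors. Lipid binding protein at 100 pM is listed for the cells with LPS alone and not for the combinations. The 15 groups held 44 sets of 2 arrays with opposite dyes: PGE2 at 1 h had 2 sets and every other group 3.

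NR4A proteins are orphan nuclear receptors: no natural hormone is established as their ligand, and their activity follows largely from how much of them a cell makes. Nr4a1 (Nur77), Nr4a2 (Nurr1) and Nr4a3 (Nor-1) are immediate early genes, transcribed within minutes of a stimulus without new protein synthesis, and their mRNAs are short-lived. ISO and PGE2 can raise cyclic AMP, which activates protein kinase A, and the kinase phosphorylates CREB, a factor that binds the cyclic AMP response element (CRE) in promoters of such genes. In macrophages NR4A genes are also known to respond to inflammatory signals, and their products are known to restrain NF-kB target genes.

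The 250 bases before each gene's annotated start are shown because CREB binding to CRE half-sites is the textbook route from cyclic AMP to these genes. The sequences are from RefSeq, build GRCm38.p6, written 5′ to 3′ on the gene's own strand. Capitals mark every TGACG or its reverse complement CGTCA, searched on both strands. The Nr4a1 window is chr15:101266596-101266845 on the plus strand, the Nr4a2 window chr2:57124004-57124253 on the minus strand, and the Nr4a3 window chr4:48045055-48045304 on the plus strand.
Nr4a1: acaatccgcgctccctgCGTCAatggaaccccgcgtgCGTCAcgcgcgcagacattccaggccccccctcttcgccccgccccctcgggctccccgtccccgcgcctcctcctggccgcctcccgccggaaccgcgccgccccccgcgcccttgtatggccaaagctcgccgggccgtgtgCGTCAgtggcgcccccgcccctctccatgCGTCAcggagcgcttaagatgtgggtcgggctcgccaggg
Nr4a2: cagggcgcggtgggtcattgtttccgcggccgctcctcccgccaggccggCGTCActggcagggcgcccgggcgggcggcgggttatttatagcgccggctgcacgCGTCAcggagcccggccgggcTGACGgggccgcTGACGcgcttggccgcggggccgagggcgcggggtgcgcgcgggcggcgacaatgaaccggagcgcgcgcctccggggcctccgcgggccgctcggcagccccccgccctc
Nr4a3: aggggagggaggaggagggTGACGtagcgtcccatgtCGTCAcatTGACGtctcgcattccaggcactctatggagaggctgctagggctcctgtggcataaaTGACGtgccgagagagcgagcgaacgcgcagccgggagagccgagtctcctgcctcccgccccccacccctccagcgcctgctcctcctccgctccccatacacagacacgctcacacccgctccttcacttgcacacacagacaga

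Each of the 3 windows held 4 half-sites. Among all 32851 promoter windows of the same length, 17.8% held at least 1 half-site and 0.137% (45 windows) held 4 or more. The full palindrome TGACGTCA, in which 2 half-sites overlap, was in none of the 3 windows and in 1.55% of all windows. The element AAAGGTCA, which NR4A monomers bind, was likewise in none of the 3 and in 1.34% of all windows. These matches describe letters only. Whether the half-sites have a part in the responses, given below probe by probe, was not tested.

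Each value is the log2 of the treated signal over the medium signal, averaged over the 2 arrays of a set, and a group mean is given ± SD over its sets. Whether the sets were separate cultures is not given in the labels. The p-values therefore rest on set-to-set variation that could be technical. The labels also do not say whether 1 batch of medium cells served several treatments. Probes were tested with limma over the 15294 probes that were other than 0 on at least 1 array, and adjusted p is over all of these. The direction of the ratios is likely rather than stated. Genes known to be induced by LPS had a median above 0 on 18 of 18 arrays with LPS alone. Genes known to be induced by cyclic AMP did so on 10 of 10 arrays with ISO or PGE2 at 1 h, and on 30 of 34 over all times. Over all probes, the 2 arrays of a set had a correlation below 0 in 10 of 17 sets without LPS (lowest -0.59). With LPS this was so in 0 of 27 sets. Probes of the macrophage marker list were measured (other than 0) on a median of 100% of arrays. The median was 84.1% for the B cell marker list, 62.5% for the fibroblast list and 38.6% for the T cell list. Single macrophage probes went down to 4.55%, and single T cell probes up to 94.3%. A ratio gives no level of a marker. Of 11 probes of T cell, B cell and fibroblast markers, 1 probe of Cd4, of its 3, passed at 1 h in the groups with LPS (0.44 with LPS and ISO, 0.47 with LPS and PGE2, 0.44 with LPS). Of 11 macrophage marker probes, 2, 2 and 4 were lower in those groups, led by Tlr4, the LPS receptor (-0.64, -0.67 and -0.84). Of all probes 3.91, 4.61 and 4.65% were called higher in those groups and 3.06, 2.84 and 4.33% lower. The part of these markers in the results was not tested. In RNA from whole cultures, fewer responding cells and less RNA per cell cannot be told apart.

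Nr4a1 rose with LPS and with ISO alone at 1 h, and its ratios were larger in the combinations. With LPS and ISO together the 3 sets had 4.06, 3.51 and 3.99, a mean of 3.85 ± 0.30 (SD, n = 3) or 14.4-fold, at rank 12 among all probes (limma adjusted p = 2.16e-10). With LPS and PGE2 they had 3.60, 3.08 and 3.54, a mean of 3.41 ± 0.28 or 10.6-fold (adjusted p = 2.48e-09). The lowest set of either combination stood above the highest set of every single treatment at that time. LPS alone gave 1.40, 1.13 and 1.77 in its sets, which is 2.70-fold on average (adjusted p = 0.00308). ISO alone gave 2.48, 2.08 and 2.73 (2.43 ± 0.33, adjusted p = 2.04e-05), the second largest increase among all probes (rank 2). PGE2 alone gave 1.5 and 1.84 in its 2 sets, 3.18-fold on average, and did not pass (adjusted p = 0.0513). It stood at rank 5 by size among all probes. In the order LPS with ISO, LPS with PGE2, ISO, PGE2 and LPS, the sets of the first pair overlapped, as did those of PGE2 and LPS, while ISO alone overlapped with neither neighbour. The shares of all probes called higher at 1 h were 3.91% for LPS with ISO, 4.61% for LPS with PGE2, 4.65% for LPS, 0.615% for ISO and 0.19% for PGE2. Without the third sets of all groups, the 1 h ratios of LPS (1.27, adjusted p = 0.226) and ISO (2.28, adjusted p = 0.164) no longer passed.

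At 2 h the Nr4a1 ratio differed widely between sets. LPS with ISO gave -0.23, 2.71 and 1.36 (mean 1.28 ± 1.47, adjusted p = 0.00515), and LPS with PGE2 gave 0.00, 2.01 and 0.64 (adjusted p = 0.0707), where both arrays of the first set are listed at 0. LPS alone gave -0.41, 0.92 and 0.50, ISO alone 0.21, 1.40 and 0.94, and PGE2 alone 0.01, 0.90 and 0.48, none of which passed. The first set was below its group mean in 5 of 5 treatments, and the second set was above it in 5 of 5. The first sets ranged from -0.41 to 0.21 and the second sets from 0.90 to 2.71. The call for LPS with ISO at 2 h was lost without the second sets (0.56, adjusted p = 0.34) and without the third sets (1.24, adjusted p = 0.241). LPS with PGE2 at 2 h passed without the first sets or with an exact 0 read as missing (both 1.33, adjusted p = 0.00572 and 0.0168). Background calls higher at 2 h were 7.57% of probes for LPS with ISO.

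By 4 h Nr4a1 was near or below the medium level. With LPS and ISO the sets had -0.91, -0.45 and -0.79 (adjusted p = 0.102). With LPS alone they had -0.96, -0.68 and -0.79, a mean 1.75-fold below medium (adjusted p = 0.0586). All 6 of these sets were below 0, without passing the threshold. Both values passed without the second sets (-0.85, adjusted p = 0.0498, and -0.87, adjusted p = 0.0455), and that of LPS alone also with an exact 0 read as missing (adjusted p = 0.0476) or with only its own group in the fit (adjusted p = 0.0419). LPS with PGE2 stood apart, with -0.15, 0.35 and 0.42 (mean 0.21). ISO alone averaged -0.17 ± 0.19 and PGE2 alone -0.14 ± 0.15 (SD, n = 3 each).

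**Figure D1:**
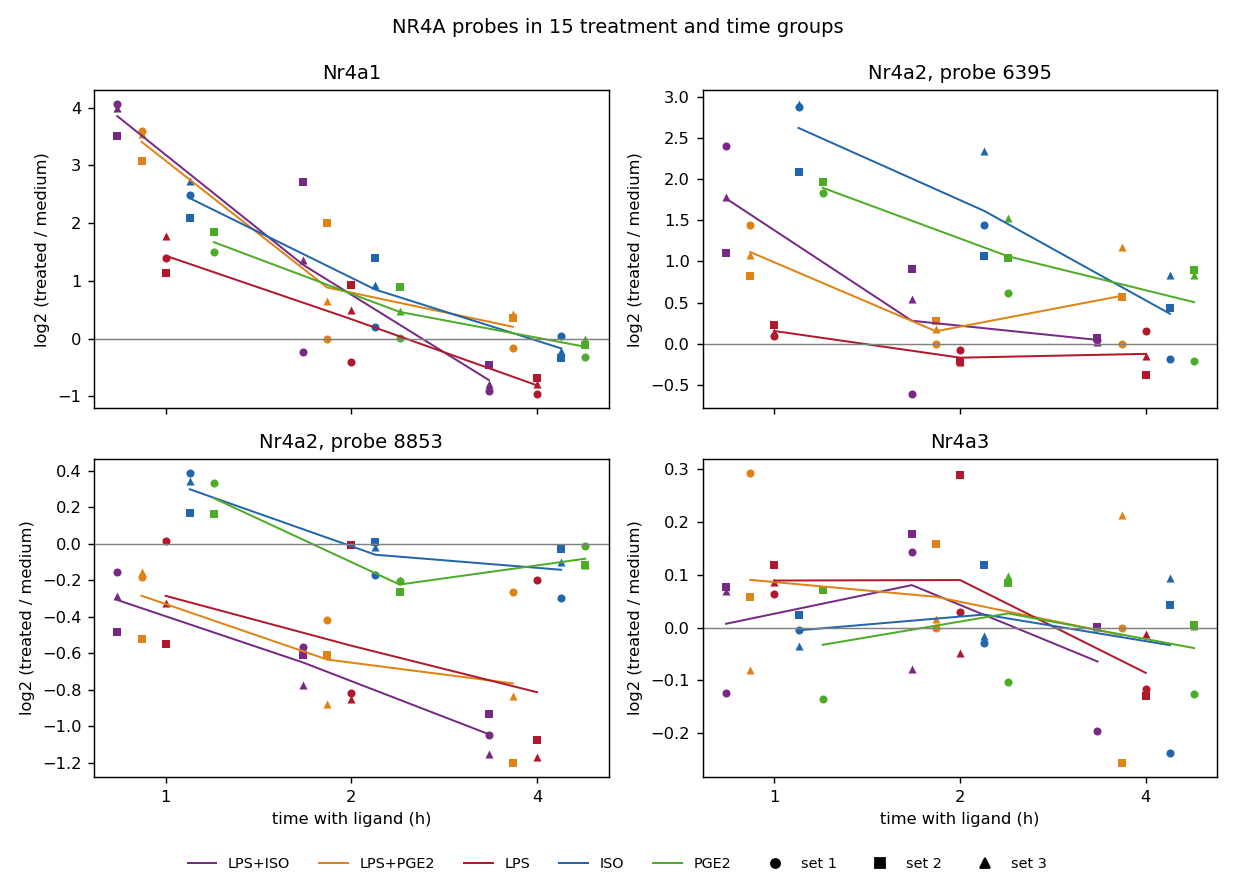
Log2 ratio of treated over medium cells (y axis, scale set per panel) at 1, 2 and 4 h (x axis) for the 4 NR4A probes. Points are set means, shaped by set number, lines join group means and colours mark treatments. Nr4a1 is highest in both combinations at 1 h (means 3.85 and 3.41), Nr4a2 probe 6395 is highest with ISO (2.62), probe 8853 lies below 0 at 2 and 4 h in every set with LPS, and Nr4a3 stays between -0.26 and 0.29.

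Nr4a2, as read by probe 6395, rose with the cyclic AMP ligands and had ratios near 0 with LPS alone. ISO gave 2.88, 2.08 and 2.91 at 1 h, 6.15-fold on average and the largest increase of all 15294 probes (rank 1, adjusted p = 1.54e-07). At 2 h ISO still gave 1.44, 1.06 and 2.34 (adjusted p = 0.00017), and at 4 h it gave -0.18, 0.44 and 0.84, which did not pass. The ISO response of Nr4a2 was thus still past the threshold at 2 h, where 0.883% of all probes were called higher. Without the third sets that value was 1.25 with adjusted p = 0.16. In the second ISO set at 2 h 1 of the 2 arrays is listed at 0, while the other had 2.12.

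PGE2 gave 1.83 and 1.96 for probe 6395 at 1 h, 3.72-fold on average (adjusted p = 0.00351). PGE2 was followed at 2 h by 0.62, 1.04 and 1.53 (adjusted p = 0.0611) and at 4 h by -0.21, 0.90 and 0.83. The 2 h value passed with an exact 0 read as missing (1.06, adjusted p = 0.0438), without the first sets (1.28, adjusted p = 0.0255), with scaled arrays (1.62, adjusted p = 0.0134) and on arrays with treated RNA in Cy5 (1.16, adjusted p = 0.0446). The 1 h call for PGE2 rests on 2 sets and was lost when the second set was left out (1.83, adjusted p = 0.178), or the third sets of the other groups (1.90, adjusted p = 0.062). LPS alone gave 0.10, 0.23 and 0.14 at 1 h, -0.08, -0.20 and -0.22 at 2 h, and 0.16, -0.38 and -0.14 at 4 h. The 95% interval for LPS at 1 h ran from -0.37 to 0.68, so a ratio of up to 0.68 is within it.

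Nr4a2 probe 6395 also rose in the combinations at 1 h, with mean ratios below those of the cyclic AMP ligand alone. The other Nr4a2 probe, 8853, did not rise there. Its means at 1 h were -0.31 with LPS and ISO and -0.28 with LPS and PGE2, and neither passed. For probe 6395, LPS with ISO gave 2.40, 1.11 and 1.78 (mean 1.76 ± 0.65, adjusted p = 1.19e-05). LPS with PGE2 gave 1.45, 0.82 and 1.08 (mean 1.11 ± 0.32, adjusted p = 0.00424), a call lost without the third sets (1.13, adjusted p = 0.124) and on the arrays with treated RNA in Cy3 (1.11, adjusted p = 0.0507). At 2 h the combinations averaged 0.28 and 0.15, and at 4 h 0.05 and 0.58, and none of the 4 values passed. Both arrays of the first set of LPS with PGE2 are listed at 0 at 2 h and at 4 h, and with an exact 0 read as missing, or without the first sets, the 4 h value was 0.87 and passed (adjusted p = 0.0252 and 0.0107). In the 1 h order ISO, PGE2, LPS with ISO, LPS with PGE2 and LPS, the values of PGE2 lay inside the range of LPS with ISO, which also overlapped with LPS with PGE2. ISO stood above PGE2 and LPS below LPS with PGE2 in every set. In the first set of LPS with ISO at 2 h the 2 arrays disagreed, with 1.03 on the array with treated RNA in Cy5 and -2.24 on the other.

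Nr4a1 had a higher ratio in every set of the combinations than in the LPS set of the same number. Lipid binding protein is listed for LPS alone only, so its part and that of the second ligand cannot be told apart. LPS with ISO minus LPS alone at 1 h was 2.66, 2.37 and 2.22 in the 3 sets, a mean difference of 2.42 (95% interval 1.49 to 3.35), and LPS with PGE2 minus LPS alone was 2.20, 1.95 and 1.77, a mean of 1.97 (1.04 to 2.90). In each contrast Nr4a1 had the largest increase of all probes (rank 1 of 15294). Neither passed after adjustment over all probes (adjusted p = 0.0687 and 0.556). In these contrasts 0.00654% of probes (1 probe, of Plk2) and 0% passed by limma, while 868 and 693 probes had an unadjusted p under 0.05. All groups share 1 estimate of the spread, and the SD of Nr4a1 was 0.24 to 0.33 in the 1 h groups and 0.44 to 1.47 in the 2 h groups. Without the first sets at 2 h, a choice made after seeing the data, the adjusted p was 0.000199 for ISO and 0.00738 for PGE2.

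With LPS added to ISO or PGE2, Nr4a1 was higher and Nr4a2 lower at 1 h in every set. For Nr4a1, LPS with ISO exceeded ISO alone by 1.57, 1.43 and 1.26, and LPS with PGE2 exceeded PGE2 alone by 2.10 and 1.24. For Nr4a2 probe 6395, LPS with ISO differed from ISO alone by -0.47, -0.97 and -1.12, and LPS with PGE2 from PGE2 alone by -0.38 and -1.14. None of these 4 contrasts passed at 1 h (adjusted p = 0.18, 0.108, 0.501 and 0.821), where 1.24% of all probes passed with ISO and 1.22% with PGE2. Without the first sets at 2 h the Nr4a1 differences had adjusted p = 0.00911 with ISO and 0.00392 with PGE2. At 2 h LPS with ISO was lower than ISO alone for Nr4a2 (log2 difference -1.33, adjusted p = 0.0251), lower in 3 of 3 sets, against 4.8% of all probes called. That call was lost without the first sets at 2 h (-0.98, adjusted p = 0.393), without the third sets (-1.10, adjusted p = 0.477) and on arrays with treated RNA in Cy5 (-0.54, adjusted p = 0.754).

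For Nr4a1 the 1 h combinations had means near the sum of the log2 ratios of their single treatments. On the fold scale that sum is a product. That sum includes LPS with lipid binding protein, which is not listed for the combinations, so its part cannot be told apart. LPS with ISO minus that sum was -0.02 (95% interval -1.16 to 1.12), and LPS with PGE2 minus it was 0.30. By set it ran from -0.52 to 0.29 with ISO and was 0.70 and 0.11 with PGE2. The differences with ISO and with PGE2 use the same LPS sets, matched by set number, so they are not independent. For Nr4a2 probe 6395 they were -1.01 (-1.92 to -0.10) and -0.94 (-1.92 to 0.05). By set they ran from -1.26 to -0.57 in the 3 sets with ISO and from -1.37 to -0.48 in the 2 with PGE2. None passed over all probes (adjusted p = 0.831 and 1 for Nr4a2), where 0% of probes passed in limma and 893 (ISO) and 526 (PGE2) had an unadjusted p under 0.05. The unadjusted p of Nr4a2 was 0.0303 with ISO and 0.0612 with PGE2. At 4 h, Nr4a1 with LPS and PGE2 exceeded its sum by 1.11, 1.13 and 1.22 in the 3 sets, where no probe passed in limma.

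**Figure D2:**
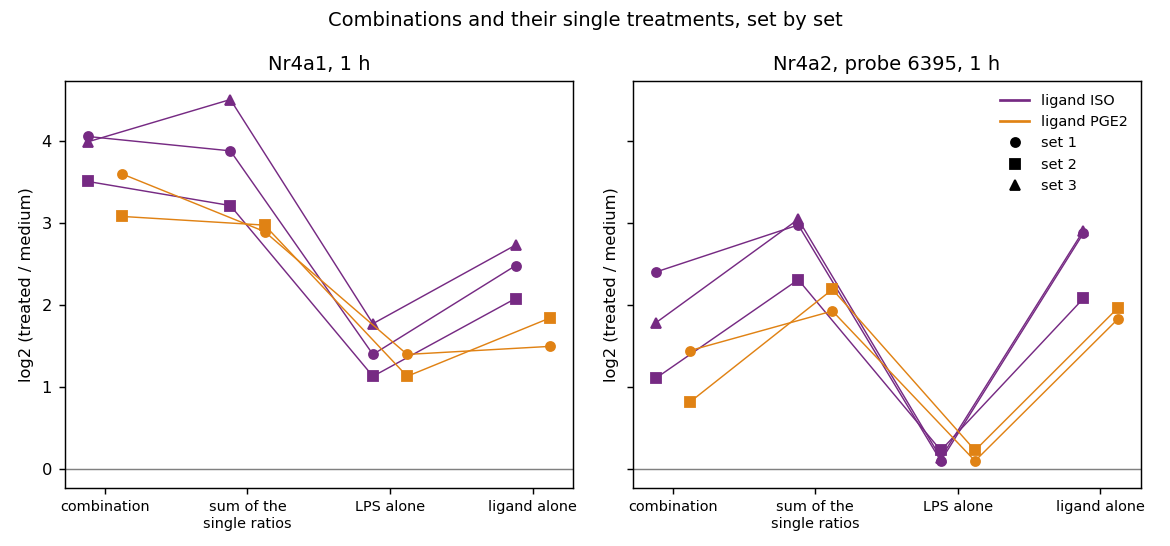
Log2 ratio of treated over medium cells at 1 h (y axis) for the combination, the sum of its 2 single log2 ratios, LPS alone and the cyclic AMP ligand alone (x axis). Each line is 1 set, shaped by set number, with the ISO series in purple and the PGE2 series in orange. For Nr4a1 the combination lies on both sides of the sum, with differences from -0.52 to 0.70. For Nr4a2 probe 6395 it lies below the sum in each of the 5 lines. The PGE2 lines reuse LPS sets of the ISO lines.

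The difference of Nr4a1 and Nr4a2 probe 6395 within a set separated the treatments by LPS at 1 h. Nr4a1 minus Nr4a2 (probe 6395) was above 0 in 9 of 9 sets with LPS, from 0.90 to 2.46 (median 2.15). In the 5 sets without LPS it was above 0 in 0, from -0.40 to -0.0002. The ranges did not overlap, and the means differed by 2.09. At 2 h it was above 0 in 7 of 9 sets with LPS and in 1 of 6 without, with means 1.43 apart (1.19 without the third sets, 1.13 on arrays with treated RNA in Cy5). At 4 h the means differed by -0.02, and by 0.37 without the first sets. This measure was chosen after the values were seen, so no test is given. The separation at 1 h held for probe 6395 only. Probe 8853 had at most 0.39 with ISO and 0.34 with PGE2 at 1 h. Nr4a1 was above probe 8853 in every set without LPS too.

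**Figure D3:**
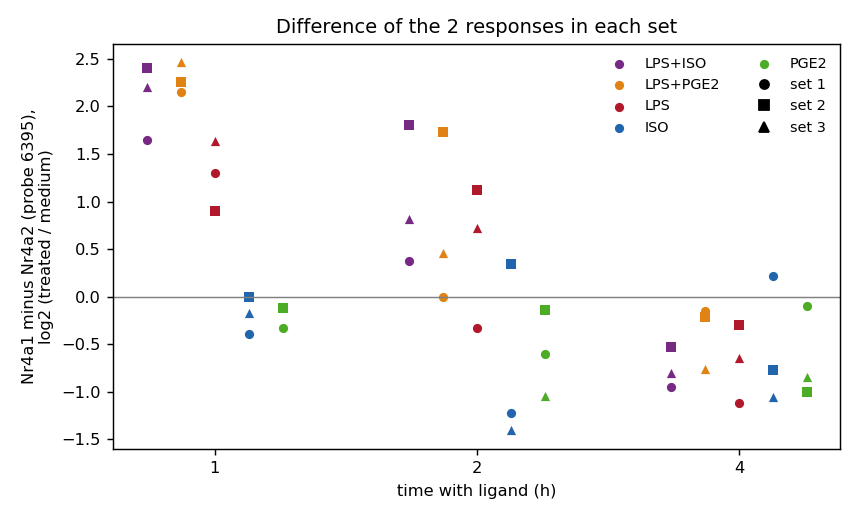
Log2 ratio of Nr4a1 minus that of Nr4a2 probe 6395 in each set (y axis) at 1, 2 and 4 h (x axis), coloured by treatment and shaped by set number. At 1 h all 9 sets with LPS lie above 0 and the 5 sets with ISO or PGE2 alone below 0, and at 4 h the groups overlap.

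The other Nr4a2 probe, 8853, fell at 2 and 4 h in every treatment with LPS. LPS with ISO gave -0.57, -0.61 and -0.78 at 2 h (adjusted p = 0.00192) and -1.05, -0.93 and -1.15 at 4 h (adjusted p = 8.47e-07), the last a mean 2.06-fold below medium. LPS with PGE2 averaged -0.63 ± 0.23 at 2 h and -0.77 ± 0.47 at 4 h (SD, n = 3 each), and LPS alone -0.56 ± 0.48 and -0.81 ± 0.54. All 18 of these sets were below 0, with the second set of LPS at 2 h closest to it (-0.01). The 6 calls stand against a background of lower calls of 5.64, 5.39 and 6.46% of probes at 2 h (LPS with ISO, LPS with PGE2, LPS) and of 14.4, 15.2 and 15.1% at 4 h. Without the third sets none of the 3 calls at 2 h was kept. The call for LPS alone at 2 h was also lost without the first sets (-0.43, adjusted p = 0.051), and that for LPS with ISO on arrays with treated RNA in Cy5 (-0.26, adjusted p = 0.122).

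With ISO and PGE2 alone probe 8853 did not pass at any time. On arrays with treated RNA in Cy5 alone its 1 h ratios passed (0.56 with ISO, adjusted p = 0.00521, and 0.56 with PGE2, adjusted p = 0.0371). Its ratio at 1 h was 0.30 ± 0.12 with ISO and 0.25 ± 0.12 (SD, n = 2) with PGE2, against 2.62 and 1.90 for probe 6395. LPS with ISO was lower than ISO alone at 4 h (log2 difference -0.90, adjusted p = 0.00175), and LPS with PGE2 was lower than PGE2 alone (log2 difference -0.68, adjusted p = 0.0193), where 18.2% and 17.5% of all probes passed. Both calls were lost with arrays scaled to 1 median absolute value (-0.58, adjusted p = 0.111, and -0.42, adjusted p = 0.331). They were also lost without the third sets (-0.83, adjusted p = 0.113, and -0.67, adjusted p = 0.246), and the second also without the second sets (-0.48, adjusted p = 0.268). Probe 8853 is annotated from a cDNA clone record and the 2 probes disagree, so each is given by itself. Which of the 2 reads Nr4a2 mRNA was not tested.

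Nr4a3 did not pass in any of the 15 comparisons with medium. Its group means lay between -0.09 and 0.09, with LPS with PGE2 at 1 h highest (0.29, 0.06 and -0.08) and LPS at 4 h lowest (-0.12, -0.13 and -0.01). At 1 h ISO gave -0.005, 0.02 and -0.04, and LPS with ISO gave -0.12, 0.08 and 0.07. For ISO at 1 h the 95% interval of the probe's ratio was -0.16 to 0.15. With limma's unadjusted p under 0.05 the count was also 0 of 15. On arrays with treated RNA in Cy3 alone, LPS with ISO at 4 h gave -0.31 (adjusted p = 0.0175). For all probes, the shares that passed in either direction at 1, 2 and 4 h were 6.97, 13.2 and 28.6% for LPS with ISO, 7.45, 12.9 and 30.1% for LPS with PGE2, and 8.98, 15.1 and 29% for LPS. They were 0.752, 1.71 and 3.39% for ISO and 0.353, 0.392 and 1.05% for PGE2.

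The 2 dye orientations of a set differed in how closely they matched from probe to probe. For Nr4a1 the 2 arrays of a pair had the same sign in 36 of 42 pairs in which both were other than 0, and for Nr4a2 probe 6395 in 27 of 38. For Nr4a3 the sign was shared in 6 of 37 pairs. Its ratio was above 0 on 35 of 44 arrays with treated RNA in Cy5 and on 5 of 44 with treated RNA in Cy3. For probe 8853 the sign was shared in 27 of 41 pairs, and the Cy5 array had the higher ratio in 40 of 41. All group values are means over both orientations.

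**Figure D4:**
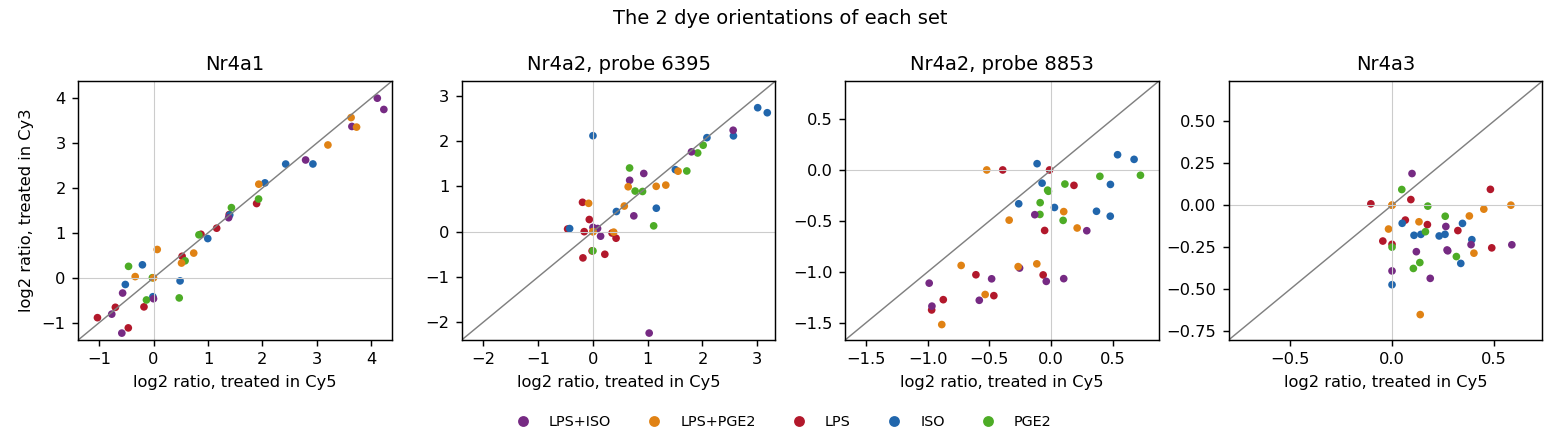
Log2 ratio on the array with treated RNA in Cy5 (x axis) against that on the array with treated RNA in Cy3 (y axis), 1 point per set (n = 44), coloured by treatment. The diagonal marks equal values. Nr4a1 and Nr4a2 probe 6395 scatter about the diagonal, with gaps of up to 3.27 for probe 6395. Probe 8853 and Nr4a3 lie mostly below it. Both arrays have the same sign in 27 of 38 pairs for probe 6395 and in 6 of 37 for Nr4a3.

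Between 1 and 4 h Nr4a1 had the most negative difference of all probes in 3 treatments. The 4 h minus 1 h difference was -4.57 for LPS with ISO (adjusted p = 3.25e-09), -2.60 for ISO (adjusted p = 0.00355) and -1.81 for PGE2 (adjusted p = 0.13), each at rank 1 from the bottom of 15294 probes. It was -3.20 for LPS with PGE2 (adjusted p = 2.35e-06) and -2.24 for LPS alone (adjusted p = 0.00038). The difference passed in 4 of 5 treatments, where 18.4% (LPS with ISO), 19.2% (LPS with PGE2), 18.6% (LPS), 0.562% (ISO) and 0.144% (PGE2) of all probes passed. Without the third sets, the calls for LPS (-2.08, adjusted p = 0.0849) and ISO (-2.43, adjusted p = 0.5) were lost.

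Part of the fall of Nr4a1 was already seen between 1 and 2 h. It was -2.57 for LPS with ISO (adjusted p = 0.00165) and -2.52 for LPS with PGE2 (adjusted p = 0.00179), against 1.49% and 1.33% of all probes called. Between 2 and 4 h it was -1.99 for LPS with ISO (adjusted p = 0.00282, 10.2% of all probes called). All 3 calls were lost without the third sets, the last also without the second sets (-1.41, adjusted p = 0.057) and with scaled arrays (-1.92, adjusted p = 0.109), and the first also without the first sets (-1.71, adjusted p = 0.0739).

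Nr4a2 probe 6395 also fell between 1 and 4 h, with a log2 difference of -1.72 for LPS with ISO (adjusted p = 0.000682) and -2.26 for ISO (adjusted p = 0.00175). For LPS with ISO it was -1.48 between 1 and 2 h (adjusted p = 0.026), a call lost without the first sets (-0.72, adjusted p = 0.496), without the third sets (-1.61, adjusted p = 0.365), with scaled arrays (-1.57, adjusted p = 0.164) and on arrays with treated RNA in Cy5 (-0.95, adjusted p = 0.65). Probe 8853 had -0.74 between 1 and 4 h with LPS and ISO (adjusted p = 0.0115), lost without the third sets (-0.67, adjusted p = 0.219), with scaled arrays (-0.28, adjusted p = 0.559) and on arrays with treated RNA in Cy3 (-0.54, adjusted p = 0.339). The ISO call of probe 6395 was lost on arrays with treated RNA in Cy3 (-2.14, adjusted p = 0.051), without the second sets (-2.56, adjusted p = 0.059) and without the third sets (-2.35, adjusted p = 0.151).

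ISO and PGE2 were each given at 1 dose. For no NR4A probe did a contrast between both ligands pass, alone or with LPS, at any of the 3 times, over 6 contrasts in which 0% of all probes passed in limma and 191 to 641 had an unadjusted p under 0.05. No NR4A probe had an unadjusted p under 0.05 in them. The largest for Nr4a2 probe 6395 was 0.73 for ISO minus PGE2 at 1 h (95% interval -0.10 to 1.56, adjusted p = 1). For Nr4a1, LPS with ISO minus LPS with PGE2 at 4 h was -0.92 (-1.85 to 0.01, unadjusted p = 0.0522, adjusted p = 1).

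Genes around the family were set beside it as counts over probes. Among 36 probes of 25 other cyclic AMP and CREB target genes, 20 were higher and 2 lower at 1 h with LPS and ISO, 22 and 2 with LPS and PGE2, 20 and 2 with LPS, 12 and 2 with ISO, and 4 and 2 with PGE2. The list's median was 0.89, 0.91, 0.76, 0.47 and 0.19 in that order, against 0.00 over all probes. Of all probes 3.91, 4.61, 4.65, 0.615 and 0.19% were called higher in that order, and 3.06, 2.84, 4.33, 0.137 and 0.163% lower. With ISO the 3 highest were Pde4b, a phosphodiesterase that degrades cyclic AMP (2.05, 1 of its 2 probes), Hilpda, a lipid droplet protein (1.81), and Dusp1, a MAP kinase phosphatase (1.74), all below both Nr4a1 and Nr4a2 probe 6395. Both lower probes were of Rgs2, a regulator of G protein signalling (-1.65 for the lower of the 2).

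Of 17 probes of 15 other immediate early genes, 14 were higher at 1 h with LPS and ISO (list median 1.72), 15 with LPS and PGE2 (1.85), 16 with LPS (2.29), 4 with ISO (0.25) and 1 with PGE2 (0.18). Of all probes 3.91, 4.61, 4.65, 0.615 and 0.19% were called higher in that order. With LPS alone the early growth response factors Egr1 (5.09) and Egr2 (4.55) led, with the phosphatase Dusp2 (4.22), all above the 1.44 of Nr4a1. With ISO the highest was Ier3 (1.57), an early response gene linked to survival.

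Of 39 probes of 32 other nuclear receptors, 1 was higher at 1 h with LPS and ISO and with LPS and PGE2 (Esrrg, an orphan receptor, 0.56 and 0.61) and 1 lower (Nr2c2, also an orphan receptor, -0.39 and -0.40). With LPS alone 2 were higher, Esrrg (0.58) and Ppara, a fatty acid receptor (0.17). Of all probes 3.91, 4.61 and 4.65% were called higher in these groups, and counts of 1 or 2 of 39 probes are near these shares. In the 2 combinations 3.06 and 2.84% of all probes were called lower. The list's median was 0.05 with ISO and with PGE2.

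Of 25 probes of 15 receptors and kinases upstream, 1 passed at 1 h with ISO and 1 with PGE2, and the same probe with both combinations. The list's median was 0.01, 0.04, 0.01, 0.00 and -0.01 for LPS with ISO, LPS with PGE2, LPS, ISO and PGE2. The probe was that of Ptger4, the EP4 receptor for PGE2, which was lower in LPS with ISO (-0.74), LPS with PGE2 (-0.68), ISO (-1.22) and PGE2 (-1.31). At 4 h 6 of the 25 probes were higher and 6 lower with LPS and ISO, 8 and 6 with LPS and PGE2, and 3 and 4 with LPS. Of all probes 14.2, 14.9 and 14% were called higher and 14.4, 15.2 and 15.1% lower in that order. The counts with LPS alone are near these shares. The lower probes of the list included Mef2c, a transcription factor (-0.65, -0.81 and -0.66 in that order), and Adcy9, an adenylyl cyclase (-0.51, -0.55 and -0.65 for the lower of its 2 probes, which both passed). Ptger2, the EP2 receptor, was higher with LPS and ISO (2.31), LPS and PGE2 (2.62) and LPS (1.86), each the highest of its 3 probes.

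Among 11 probes of 7 partner and regulator genes of NR4A proteins, 1 was higher at 1 h in each group with LPS and 1 lower with LPS alone (Rxrb, a retinoid X receptor, -0.25, 1 of its 3 probes). The higher one, Rela, the NF-kB p65 subunit, had a raised ratio with LPS and ISO (0.60), LPS and PGE2 (0.68) and LPS (0.83). Of all probes 3.91, 4.61 and 4.65% were called higher in these groups at 1 h, and 4.33% lower with LPS. At 4 h Pml, a nuclear body protein, was higher with LPS (2.01), and both probes of Bcl2, a survival factor to which Nr4a1 protein is known to bind, were lower (-0.71 for the lower one). With LPS at 4 h 14% of all probes were called higher and 15.1% lower. Of 13 probes of 9 genes known as NR4A targets in macrophages or other cells, 2 were higher at 1 h with LPS and PGE2 and 1 with LPS, all of Ikbke, an IkB kinase (0.72 for the higher probe with LPS and PGE2, 0.70 with LPS). With LPS at 4 h the ratio was 2.87 for the 1 of its 2 probes that passed.

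The genes most like each probe were taken by Pearson r of set means over 44 sets, among 10278 probes, as a description. Sets of the same number and time deviated together, and sets may share medium cells. For Nr4a1 they were Dnajb9 (0.82), Hgf (0.81), Id3 (0.80), Per1 (0.80) and Nedd4l (0.80). At 1 h with LPS and ISO they had ratios of 1.00, 1.01, 1.14, 0.88 and 0.20, all smaller than the 3.85 of Nr4a1. For Nr4a2 probe 6395 they were Rbmxl2 (0.77), Gins3 (0.72), Tmem189 (0.71), Thbd (0.71) and Smad6 (0.71). Of these, Thbd, thrombomodulin, had 1.30 with ISO at 1 h (adjusted p = 2.56e-05) and -0.36 with LPS.

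For probe 8853 the most like genes were Id2 (0.84), Fam131a (0.83), Bag4 (0.82), Tril (0.82) and Trabd (0.80). Id2, an inhibitor of basic helix-loop-helix factors, had -2.53 with LPS and ISO at 4 h (adjusted p = 1.18e-10). For Nr4a3 the values were lower: Shc3 (0.61), Chml (0.58), Map3k2 (0.56), Mcm9 (0.56) and Cyp3a41a (0.54). Among the members, Nr4a1 and Nr4a2 probe 6395 had r = 0.63, and the 2 Nr4a2 probes r = 0.61.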

How the data were processed

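RNA of treated RAW 264.7 cells was measured against RNA of medium cells on 88 2-colour arrays. The authors deposited 1 table of log2 ratios per probe and array. The log2 scale is inferred from the values, whose largest size, 6.64, is log2 of 100. The sources used here give neither how the ratios were normalized nor what an exact 0 means. The signal behind a ratio is unknown, and the number of arrays limits precision. The sign was turned on arrays whose treated RNA carried Cy3, and the 2 arrays of a set were averaged.

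Tests used limma 3.58.1 in R 4.3.3, in 1 fit of 44 sets with a mean per group (29 residual degrees of freedom), Benjamini-Hochberg adjustment over 15294 probes of a comparison and a threshold of 0.05. Contrasts gave the combinations, the ligands and the times. Intervals are at 95%. The script was tested on simulated data: of 200 changed probes, 86% were recovered at the smallest log2 change simulated (0.5) and 100% at 1, 2 and 3. Among the unchanged probes 12 were called. The simulated noise was independent between sets, with 1 spread per probe in all groups. Sets of the same number and time deviated together in the data, so these shares do not give the power here. Symbols and promoters are from RefSeq GRCm38.p6. List genes were named where they passed, at most 3 highest and 3 lowest, and likeness genes were the 5 highest correlations among probes measured on a share of at least 0.5 of the arrays. The members, lists and this rule were chosen with earlier results of these data known. Alternatives were the treatment of zeros, filters, scaling, gene means, the samples in the fit, the replicate block, each dye and leaving out sets. Plk2 was named after its value was seen.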

Additional observations from a re-analysis of the deposited data

Results flagged for a closer look

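Responses differed between times, by the contrast of the times itself, in 11 cases, all lower at the later time. For Nr4a1 the 4 h minus 1 h log2 difference was -4.57 with LPS and ISO, -3.20 with LPS and PGE2, -2.24 with LPS and -2.60 with ISO. The 2 h minus 1 h difference was -2.57 with LPS and ISO and -2.52 with LPS and PGE2, and the 4 h minus 2 h difference with LPS and ISO was -1.99. For Nr4a2 probe 6395 the differences were -2.26 with ISO (4 h minus 1 h), and -1.48 (2 h minus 1 h) and -1.72 (4 h minus 1 h) with LPS and ISO. For Nr4a2 probe 8853 it was -0.74 with LPS and ISO (4 h minus 1 h).

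At 1 h Nr4a1 minus Nr4a2 probe 6395 was above 0 in every set with LPS and below 0 in every set without, with means 2.09 apart. This difference was not tested. Nr4a1 was above the other Nr4a2 probe, 8853, in the sets without LPS as well.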

How the results depend on the processing

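Over the 4 probes, 10 values against medium were called higher, 6 lower and 11 differences between times lower, each of 60 tested. Over all probes 5.61% of comparisons with medium were called higher and 5.06% lower, and 2.98% of those between times lower. With only the groups of a contrast in the fit, where fewer sets estimate the spread, these counts were 0, 2 and 4, and 2901 of all probes' results passed over the 15 comparisons with medium, against 24471. In that fit no 1 h value passed: Nr4a1 kept 3.85 (LPS with ISO), 3.41 (LPS with PGE2), 1.44 (LPS) and 2.43 (ISO), and Nr4a2 probe 6395 kept 1.76 (LPS with ISO), 1.11 (LPS with PGE2), 2.62 (ISO) and 1.90 (PGE2). Leaving out a set of each group gave 4 to 13 calls higher, 3 to 8 lower, 0 to 2 lower for a combination against its ligand (3 with all sets) and 3 to 13 lower between times, the lowest each without the third sets (12641 calls over all probes). Under it the 1 h ratio of Nr4a1 ranged from 1.27 to 1.59 with LPS and from 2.28 to 2.61 with ISO, and that of probe 6395 from 1.83 to 1.96 with PGE2 and from 0.95 to 1.26 with LPS and PGE2. The last had 1.11 on arrays with treated RNA in Cy3 (adjusted p = 0.0507). Nr4a1 with PGE2 at 1 h passed at 1.67 with a filter on measured probes, robust variances or no first sets at 2 h, and at 1.68 with treated RNA in Cy5.

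The fit described above did not pair sets by number. Of 86 correlations of deviations between sets of 1 number and time, 84 were over 0.1 and the lowest was 0.0117. Between sets of different number at the same time 9 of 172 were over 0.1, and between sets of 1 number at different times 61 of 215. With the set number as a replicate block, 5 of 216 values gained a call and 0 lost one, Nr4a1 with PGE2 at 1 h had 1.72 (adjusted p = 0.0184), and 1 combination was higher than LPS alone. With a block within each time, chosen after seeing the data, 22 gained one and 0 lost one, the same value was 1.78, 20 differences between times were lower, 3 combinations were higher than LPS alone and 2 higher than the ligand, and 40392 results passed over all probes. Combinations against LPS alone, with 0 called otherwise, had 1 call with the filter, gene means, centring or Cy5 alone, and 2 without the first sets at 2 h, which also gave 2 against the ligand. Scaled arrays left 1 call lower against the ligand. Averaging both Nr4a2 probes gave 0.42 for LPS with PGE2 at 1 h (adjusted p = 0.098), and turned the sign of probe 8853 for LPS with ISO at 1 h (0.73) and ISO at 2 h (0.78), and of probe 6395 for LPS with ISO at 4 h (-0.50). Nr4a1 minus Nr4a2 at 4 h, -0.02 between sets with and without LPS, ranged from -0.30 to 0.37 when a set was left out (0.37 without the first sets). Of 216 values, 154 kept their call, or its absence, under every alternative. Of the 30 that were called, 3 kept the call under every alternative, and 10 with the own-group fit and gene means set aside. The cause was not tested. The signal behind a ratio is unknown, so its part in these limits cannot be given.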
